A study of Mus musculus with 2 samples.

Results

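Cytokines of the interleukin-6 family, their receptors, the transcription factor STAT3 and its feedback inhibitor SOCS3 were followed in mouse kidney through 10 genes chosen by symbol. The choice was made with earlier results of these data known. The ligands were Lif, Osm, Il11 and Clcf1, the receptor chains were Il6ra, Il6st, Osmr and Lifr, and Stat3 and Socs3 completed the set. Of these 10 genes, 9 were analysed among 20002 in all, and Osm was not analysed here. RNA-seq of whole kidney compared 1 library from control mice with 1 from Reg-2 CKO mice, to examine loss of Regnase-2, an RNA-degrading enzyme, from renal proximal tubules. The methods name C57BL/6J mice. CKO mice were injected through the tail vein at 11 weeks of age with AAV9 carrying shRNA against Regnase-2, so that CKO names a viral knockdown here. No tubule-specific promoter is named. The supplement reports a preference of AAV9 for proximal tubules and places the knockdown there by staining for Regnase-2 together with a tubule lectin. Control mice received AAV9 that is described in one place as an empty vector and in another as control shRNA. The age at collection is given as 14 weeks in the RNA-seq methods and in a supplementary legend on the injections, and as 16 weeks in the injection methods. RNA was taken from the left kidney, and stranded poly(A) libraries were made. Whether a library held 1 mouse or a pool is not stated, and the labels give no sex.

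The deposited values are normalized counts. After a floor of 34 was subtracted from each control value and of 50 from each CKO value, the results are called reads here. They summed to 38851231 in the control library (Control) and 43588721 in the CKO library (CKO), sums that may differ from the sequencing depth. To scale the libraries, each CKO read number was multiplied by 0.667, the median gene ratio of control to CKO. This scaling came on top of the normalization of the deposited values. Zc3h12b, which encodes Regnase-2, had 47 reads in Control and 59 in CKO. These levels were not distinguishable at these read numbers (log2 ratio -0.25, 95% interval -0.83 to 0.33), and the sign of the ratio turned with equal library totals, at 0.16. The target gene therefore did not check the labels, and CKO means throughout the library labelled so. The tissue label was checked with kidney markers. Slc34a1, the phosphate transporter of the proximal tubule, had 147064 and 98124 reads, and Umod, the uromodulin gene of the thick ascending limb, had 90047 and 187056. Both libraries thus held abundant nephron transcripts, while the liver gene Apoa1 had 11 and 12 reads and the steroidogenic gene Star 37 and 70. Other liver list genes are also expressed in kidney tubules, so that list is no measure of liver tissue: Cyp2e1 was its most abundant and lowest gene, at a log2 ratio of -2.68. The 3 liver genes analysed of 4 summed to 97018 and 22760 reads, and the 2 adrenal genes of 4, with Star the more abundant, to 41 and 80.

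Cytokines of this family signal through gp130, the shared chain encoded by Il6st, which pairs with a cytokine-specific chain such as those encoded by Il6ra, Osmr or Lifr. Janus kinases bound to the receptor phosphorylate STAT3, which enters the nucleus and drives transcription of, among others, Socs3. SOCS3 protein binds gp130 and the kinases and dampens the signal, and in injured kidney tubules this pathway is known as part of the acute response.

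The ligand genes and Socs3 were several-fold higher in the CKO library, whereas Il6st and Stat3, which serve all these cytokines, stayed within 2-fold. Stat3 was at 0.41 under the scaling used, 0.83 with equal totals and 0.99 on the deposited values, and Il6st at 0.12, 0.54 and 0.70. Among the receptor chains, Osmr and Il6ra were higher and Lifr was lower, although Lifr turned to 0.00 with equal totals and to 0.17 on the deposited values. Of the 9 genes, 6 were at least 2-fold higher in the CKO library and 0 were lower by that much. With the deposited values scaled by the median gene ratio, the 6 fell to 5, without Il11 at 0.73. A minimum of 10 scaled reads in either library left 17469 genes, of which 2334 (13.4%) passed 2-fold upward in CKO and 934 (5.35%) downward. The median log2 ratio was 2.02 over the 9 genes and 0.022 over all genes compared. Over the 9 genes it was 1.07 with the deposited values scaled by the median gene ratio. Il11 passed the read minimum only through the CKO library, where it was high, so it could enter the count only as higher. Of the 8 genes that passed in both libraries, 5 were at least 2-fold higher. Because the genes were chosen with earlier results known, these counts and medians describe them and are no test against all genes. With 1 library per group, no difference has a replicate check. Fold ratios carry no pseudocount, whereas log2 ratios of single genes carry a pseudocount of 1, so they differ where reads are few. The 95% intervals are exact Clopper-Pearson intervals without a pseudocount and concern counting error only. They treat the values as independent counts, and since reads are not independent molecules, they may be too narrow. In bulk kidney, more cells of a type and more RNA per cell cannot be told apart, nor fewer cells and less RNA per cell.

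The split of higher and lower genes depended on the scaling. Of the genes past 2-fold, 71.4% were higher under the scaling used, 89.9% under equal totals and 96.5% on the deposited values. Equal totals moved the median of all genes compared to 0.44, and the deposited values moved it to 0.57. Against that median, Lifr at 0.00 under equal totals still lay below the middle of the genes compared, and Osmr at 2.44 lay above it. Ratios also varied with read number. In 4 bands of mean reads, the median log2 ratio was 0.31 in the lowest band, 0.23 in the second, -0.0013 in the third and -0.21 in the highest. Il11 lay in the lowest band, in which 27.7% of genes were at least 2-fold higher, and Lif and Il6ra lay in the second, with 17.7%. Clcf1, Osmr and Socs3 lay in the third, from 494.7 to 1465 mean reads, where 5.52% were at least 2-fold higher. Il6st, Lifr and Stat3 lay in the highest band, with 2.45%.

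**Figure D1:**
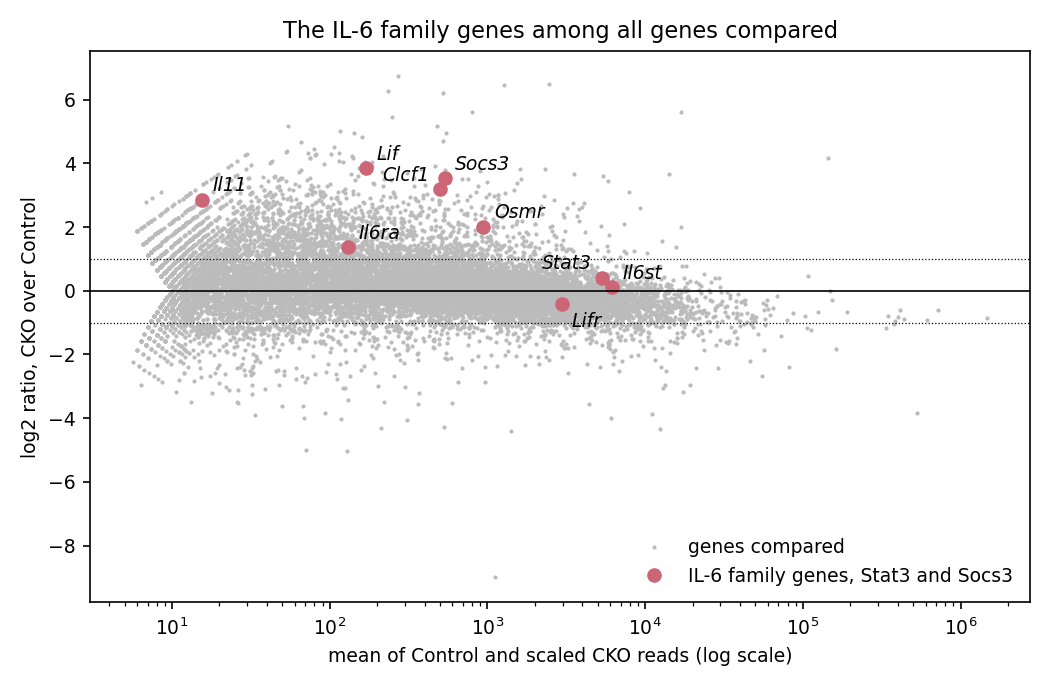
Log2 ratio of the CKO over the Control library (vertical axis) against the mean of control and scaled CKO reads (horizontal axis, log scale) for 17469 genes, with the 9 analysed genes in red and dotted lines at 2-fold. Lif, Socs3 and Clcf1 rank 50, 79 and 128 from the top, and Il6st, Stat3 and Lifr lie within 2-fold (Lifr below 0 here, at 0.00 with equal totals and above 0 on the deposited values).

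Lif, which encodes leukemia inhibitory factor, lies on chromosome 11 of GRCm38 from 4257557 to 4272514. It had 21 reads in Control and 477 in CKO. Control thus held few Lif reads, and CKO held many times more. After scaling, Lif was 15.1-fold higher in the CKO library (95% interval 9.79 to 24.7), a log2 ratio of 3.86 that ranked 50 of 17469. With the deposited values scaled by the median gene ratio, Lif was at 2.67, below its interval and below Clcf1 at 2.83 and Socs3 at 3.11, which also moved below theirs. Clcf1 encodes cardiotrophin-like cytokine factor 1, a ligand of the ciliary neurotrophic factor receptor. It had 98 control and 1352 CKO reads and, per length, the highest level of the 3 analysed ligands of the chosen set in each library. Clcf1 was 9.20-fold higher in the CKO library (7.49 to 11.4; log2 ratio 3.19; rank 128). Another protein-coding model overlaps Clcf1 on the same strand, and how the counting treated shared reads is not stated, so its reads are uncertain to that extent. Il11, the gene of interleukin-11, had 3 reads in Control and 42 in CKO. The control value is a handful of reads, and the ratio of 9.33 accordingly had a wide interval of 2.98 to 47.1. Its log2 ratio of 2.86 ranked 225, and it was 0.73 when the deposited values were scaled by the median gene ratio, below 2-fold. Together the 3 ligands had 122 reads in Control and 1871 in CKO.

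Proximal promoters of those of the 10 genes that had sequence windows, both higher and not, were searched for motifs of STAT factors and of AP-1, a factor of the immediate early response. Clcf1 and Osm had no window. RefSeq windows of the 250 bases before each start (build GRCm38.p6) were read for 8 of the 10 genes, in 10 windows, and both strands were searched. The letters were TTCNNNGAA for STAT factors, then TTCCNGGAA as a narrower subset of them, and TGACTCA for AP-1, whose reverse complement reads TGAGTCA. Of 32851 promoter windows, 7.02% held TTCNNNGAA, 0.913% TTCCNGGAA and 4.46% TGACTCA. Socs3 alone of the 8 genes held TTCNNNGAA, none held TTCCNGGAA, and Lif and Il11 each held the AP-1 letters in 1 window. The windows that held a motif are printed 5′ to 3′ on the strand of the gene, with the matched letters in capitals. Lif is at chr11:4257318-4257567 on the + strand, with the match 221 bases before the start. Il11 is at chr7:4778142-4778391 on the - strand, with the match 91 bases before a start that lies inside the gene. The gene runs from 4772373 to 4782859, and the window of its outer start, at chr7:4782858-4783107, had no match. Socs3 is at chr11:117969367-117969616 on the - strand, with the match 145 bases before the RefSeq start, which itself lies 180 bases upstream of the protein-coding transcript start in GENCODE M21. The Osmr window ends at a RefSeq start at 6874313, downstream of the GENCODE start at 6874969 on the - strand. The 2 Lifr windows also lie inside the gene, as does the Socs3 window, since the outermost Socs3 start is at 117970047. For Osmr, Lifr and Socs3 the bases before the outermost start were therefore not searched. For Socs3, the 180 bases between the RefSeq start and the GENCODE protein-coding start were not searched either. A match of letters describes these windows only, and binding was not measured.
Lif: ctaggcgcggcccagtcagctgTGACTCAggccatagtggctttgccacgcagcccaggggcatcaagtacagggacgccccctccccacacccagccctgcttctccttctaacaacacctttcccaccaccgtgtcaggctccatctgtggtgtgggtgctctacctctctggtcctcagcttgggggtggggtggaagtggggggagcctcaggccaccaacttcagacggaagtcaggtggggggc
Il11: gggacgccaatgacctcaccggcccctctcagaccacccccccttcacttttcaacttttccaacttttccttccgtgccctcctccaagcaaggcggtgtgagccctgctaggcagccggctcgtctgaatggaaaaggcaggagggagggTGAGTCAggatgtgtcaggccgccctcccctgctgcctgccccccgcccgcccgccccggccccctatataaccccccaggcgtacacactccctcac
Socs3: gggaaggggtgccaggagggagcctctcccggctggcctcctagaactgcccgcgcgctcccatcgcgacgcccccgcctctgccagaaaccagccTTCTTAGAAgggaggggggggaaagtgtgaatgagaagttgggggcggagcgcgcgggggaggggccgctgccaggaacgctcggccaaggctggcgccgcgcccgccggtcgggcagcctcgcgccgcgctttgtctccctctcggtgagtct

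**Figure D2:**
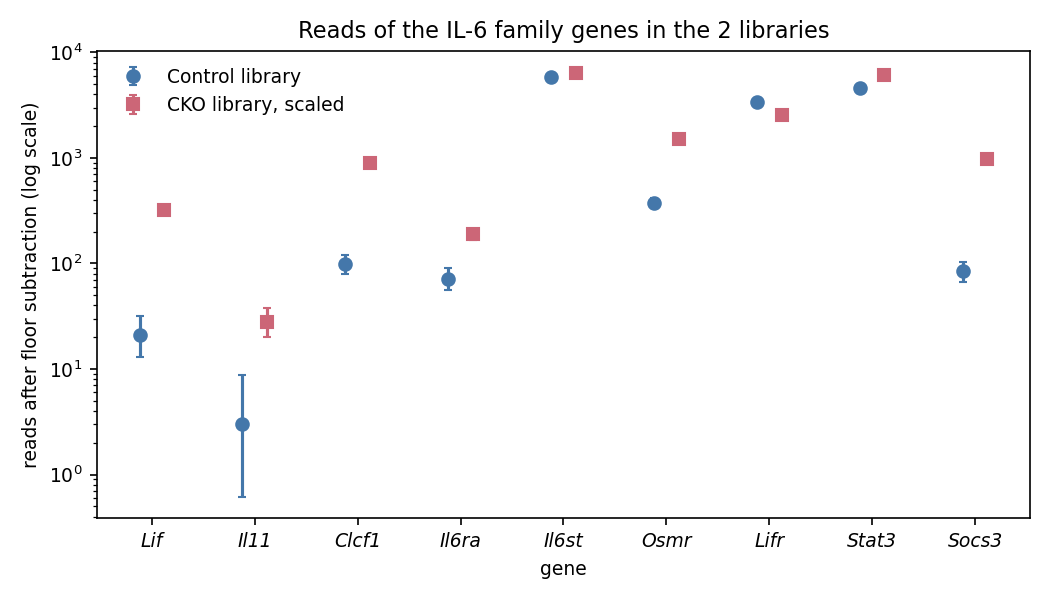
Reads after floor subtraction (log scale) of the 9 analysed genes in the Control library and, multiplied by 0.667, in the CKO library, with bars for the exact 95% interval of each read number. Lif, Il11, Clcf1, Il6ra, Osmr and Socs3 are at least 2-fold higher in CKO, and Il6st and Stat3 lie within 2-fold (Lifr is lower in CKO under this scaling and level, at a log2 ratio of 0.00, under equal totals).

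Osmr encodes the oncostatin M receptor chain and lies on chromosome 15 from 6813577 to 6874969. It had 373 reads in Control and 2268 in CKO. Osmr was the receptor chain with the largest ratio, 4.05-fold higher in the CKO library (3.63 to 4.53), and its log2 ratio of 2.02 ranked 736. Il6ra, the binding chain for interleukin-6, had 72 control and 283 CKO reads. It was 2.62-fold higher (2.02 to 3.44; log2 ratio 1.38; rank 1529), with the lower bound close to 2-fold. An antisense gene overlaps Il6ra, and since the strand setting of the counting is not stated, reads of the antisense gene cannot be told apart from its own. Il6st, the shared gp130 chain, had 5891 and 9590 reads. After the scaling used it was nearly level, at 1.09-fold (1.05 to 1.12), and its log2 ratio of 0.12 was above the median of all genes compared by a small margin. Lifr, the leukemia inhibitory factor receptor chain, also on chromosome 15 from 7090614 to 7197489, had 3375 and 3790 reads. Its scaled ratio was 0.749 (0.715 to 0.784), a log2 ratio of -0.42, which turned to 0.00 with equal totals and to 0.17 on the deposited values. Across the 4 chains, the sum was 9711 reads in Control and 15931 in CKO, 1.09-fold under the scaling used. Under it, the chains differed in proportion more than in sum. The sum was mostly Il6st and Lifr, and it would be higher in CKO with equal totals or the deposited values. Il6st was at 0.54 and 0.70 under these.

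Shares within a library do not depend on the scaling between libraries. Osmr made up 9.95% of the reads of Osmr and Lifr in Control (9.01 to 11) and 37.4% in the CKO library (36.2 to 38.7). Oncostatin M signals through the Osmr product paired with gp130, while leukemia inhibitory factor uses the Lifr product. The reads of Osmr per read of Lifr were 5.41-fold higher in the CKO library (exact conditional interval 4.80 to 6.11). Il6ra made up 1.21% of the reads of Il6ra and Il6st in Control (0.946 to 1.52) and 2.87% in the CKO library (2.55 to 3.21), and its reads per read of Il6st were 2.41-fold higher (1.85 to 3.18). The intervals of the libraries did not overlap for either pair. Per length of the longest protein-coding transcript, Il6st held 61.5% of the level of the 4 chains in the control library and 56.9% in the CKO library. Lifr held 31.6% and 20.2%, Osmr 6.15% and 21.3%, and Il6ra 0.754% and 1.69%. With the mean transcript length, an alternative chosen after the data were seen, Osmr held 2.57% and 9.73% and Il6st 68.3% and 69.2%, so the shares between genes depended on the length used.

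**Figure D3:**
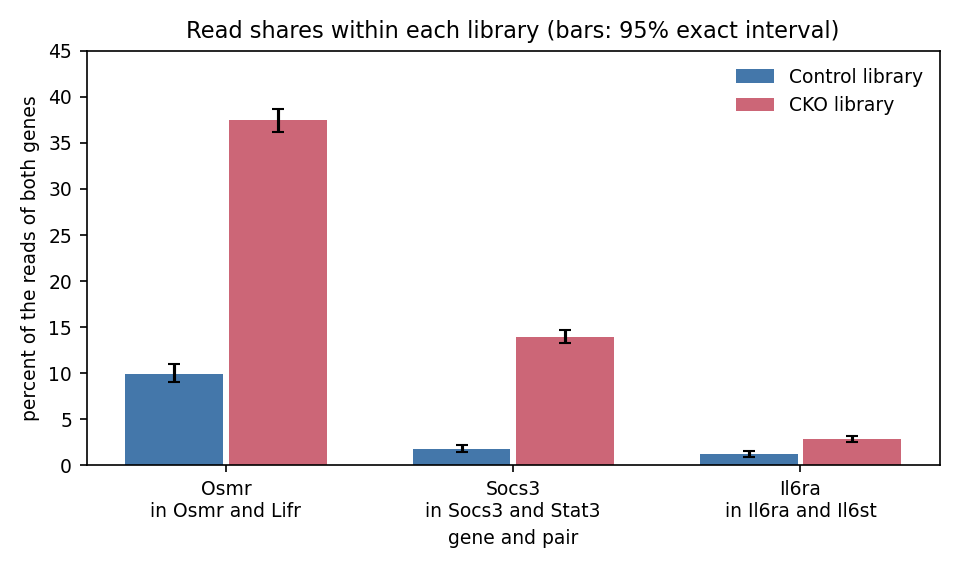
Percent of the reads of a gene pair that belong to the first gene, within the Control and the CKO library, with exact 95% Clopper-Pearson intervals as bars. All 3 shares are larger in the CKO library: 37.4% against 9.95% for Osmr, 14% against 1.80% for Socs3, and 2.87% against 1.21% for Il6ra.

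Stat3, on chromosome 11 from 100885098 to 100939540, had 4579 reads in Control and 9106 in CKO. It was one of the abundant genes of the set in both libraries and was at 1.33-fold after scaling (1.28 to 1.37), a log2 ratio of 0.41 that ranked 4764. Stat5a overlaps it on the opposite strand and had a log2 ratio of 0.06, and with the strand setting not stated, reads from the overlap cannot be assigned. Socs3, on chromosome 11 from 117966079 to 117970047, had 84 control and 1479 CKO reads. Its transcript was scarce in Control and many times as frequent in CKO. The scaled ratio was 11.7 (9.42 to 14.8), and the log2 ratio of 3.54 ranked 79. Socs3 made up 1.80% of the reads of Socs3 and Stat3 in Control (1.44 to 2.23) and 14% in the CKO library (13.3 to 14.6), or 8.85-fold more reads per read of Stat3 (7.08 to 11.2). Socs3, Lif and Clcf1 thus differed far more between the libraries than Stat3, while Il11 came near it on the deposited values, at 1.29 against 0.99. This is a difference of the mRNA only, since phosphorylated STAT3 was not measured here.

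Levels of different genes were compared as RPKM, with each library's read total and the length of the longest protein-coding transcript. In the control library the order was Stat3 (19.5), Il6st (17.5), Lifr (9.0), Osmr (1.75), Clcf1 (1.37), Socs3 (0.847), Il6ra (0.215), Lif (0.134) and Il11 (0.040). In this order the counting intervals overlapped between Osmr and Clcf1, between Il6ra and Lif and between Lif and Il11, and the other neighbours were separate. In the CKO library it was Stat3 (34.6), Il6st (25.4), Clcf1 (16.8), Socs3 (13.3), Osmr (9.48), Lifr (9.01), Lif (2.72), Il6ra (0.752) and Il11 (0.494). The intervals of Osmr and Lifr overlapped there, as did those of Il6ra and Il11 at their edge. Clcf1 and Socs3 thus stood below Lifr in the control library and above it in the CKO library. With the mean transcript length Lifr was at 22.6 and Osmr at 10.9 in the CKO library, and Il6st at 77.8 stood above Stat3 at 52.3, so the order within the abundant genes depended on the length used. On that length Clcf1 at 27.9 stood above Lifr and Socs3 at 13.3 below it.

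The pathway was extended to 43 further genes, of which 38 were analysed. Of these, 10 (26.3%, against 13.4% of all genes compared) were at least 2-fold higher in CKO and 0 lower by that much, and the median log2 ratio was 0.25. Cntf and Socs1 passed the read minimum only through the CKO library and could count only as higher, and of the 36 that passed in both libraries 8 were higher. With the deposited values scaled by the median gene ratio, the 10 fell to 8, without Socs1 and Birc5. For 9 of the 38, the whole interval lay above 2-fold. The pathway lists were chosen with earlier results of these data known, so their shares are descriptive only and no test. Among other ligands, 1 of 3 analysed genes was at least 2-fold higher, with a median of 0.94. Cntf, the ciliary neurotrophic factor gene, whose locus lies inside that of Zfp91 on the same strand so that its reads are uncertain, had 9 against 92 reads, a log2 ratio of 2.64 (1.78 to 3.94). With the deposited values scaled by the median gene ratio Cntf was at 1.13, below this interval. Ctf1, the cardiotrophin 1 gene, was the lowest of the group at 0.21, with an interval that held 0. Cntfr, the ciliary neurotrophic factor receptor chain, which the Clcf1 product also uses, had 76 against 71 reads, a log2 ratio of -0.67 (-1.17 to -0.20), which turned to 0.14 on the deposited values. The ligand genes Clcf1 and Cntf were thus higher while the receptor chain was not. Il27ra was the 1 of 3 other receptor chains at least 2-fold higher, with 19 and 112 reads and a log2 ratio of 1.92. With the deposited values scaled by the median gene ratio Il27ra was at 1.03. Il11ra1, the chain for interleukin-11, had 1872 against 1907 reads, a log2 ratio of -0.56 (0.04 on the deposited values), and it has near-identical copies among which reads can be split.

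The pathway list held 5 JAK and STAT genes besides Stat3, which are part of these families only. Within the list they ran from Stat5b at -0.28, which turned to 0.14 with equal totals, to the kinase gene Jak2, with 1096 and 2164 reads and a log2 ratio of 0.40 (0.29 to 0.50). Outside the list, Stat2 was at 1.31 (529 and 1976 reads), Stat4 at 1.26 (10 and 38 reads, and 0.42 with the deposited values scaled by the median gene ratio), Jak3 at 0.74 (404 and 1011 reads) and Stat6 at 0.15. Of 12 negative regulators besides Socs3, 2 (16.7%, against 13.4% of all genes compared) were at least 2-fold higher, and their median was 0.15. Socs2, a regulator of growth hormone signalling, had 299 against 1788 reads, a log2 ratio of 1.99 (1.82 to 2.18). Socs1 had 8 and 37 reads, a difference with a wide interval (log2 ratio 1.51, 0.50 to 2.94), and it was at 0.47, below 2-fold, with the deposited values scaled by the median gene ratio. Cish, another family member, was the lowest at -0.74 (-0.87 to -0.61), with 1060 and 951 reads. The SOCS family therefore held genes on both sides of 0 under the scaling used, and Cish was below 0 under all 6 other scalings and floors as well. The receptor-cleaving proteases Adam10 and Adam17 were at 0.26 and 0.37, neither past 2-fold.

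Of 15 known STAT3 target genes, 13 were analysed, 6 of these (46.2%) passed 2-fold upward and 0 downward, against 13.4% and 5.35% of all genes compared, and their median log2 ratio was 0.59. This list too was chosen with earlier results known, so its share is no test against all genes. Fgg, the fibrinogen gamma chain gene, had the highest ratio, with 51 reads in Control and 560 in CKO (log2 ratio 2.85). Junb, an AP-1 subunit, followed with 557 and 3784 reads (2.18). Cebpd, a transcription factor of the acute phase response, was at 1.84 and Bcl3, a nuclear partner of NF-kB, at 1.81. Birc5, the survivin gene, was at 1.55 (0.99, below 2-fold, with the deposited values scaled by the median gene ratio) and Myc at 1.45. The other 7 stayed within 2-fold. Fga, the fibrinogen alpha chain gene, had 943 and 2028 reads (0.52). Mcl1 was at 0.59, Il4ra at 0.49, Cebpb at 0.26, Pim1 at 0.14 and Bcl2l1 at -0.10, which turned to 0.32 with equal totals. The lowest was the cyclin gene Ccnd1, the most abundant of the list, with 13010 and 15586 reads and a log2 ratio of -0.32, which turned to 0.09 with equal totals. The targets thus ranged from below 0 to above the ratio of Osmr. Many of these genes have other activators, and the part of STAT3 in their levels was not tested.

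**Figure D4:**
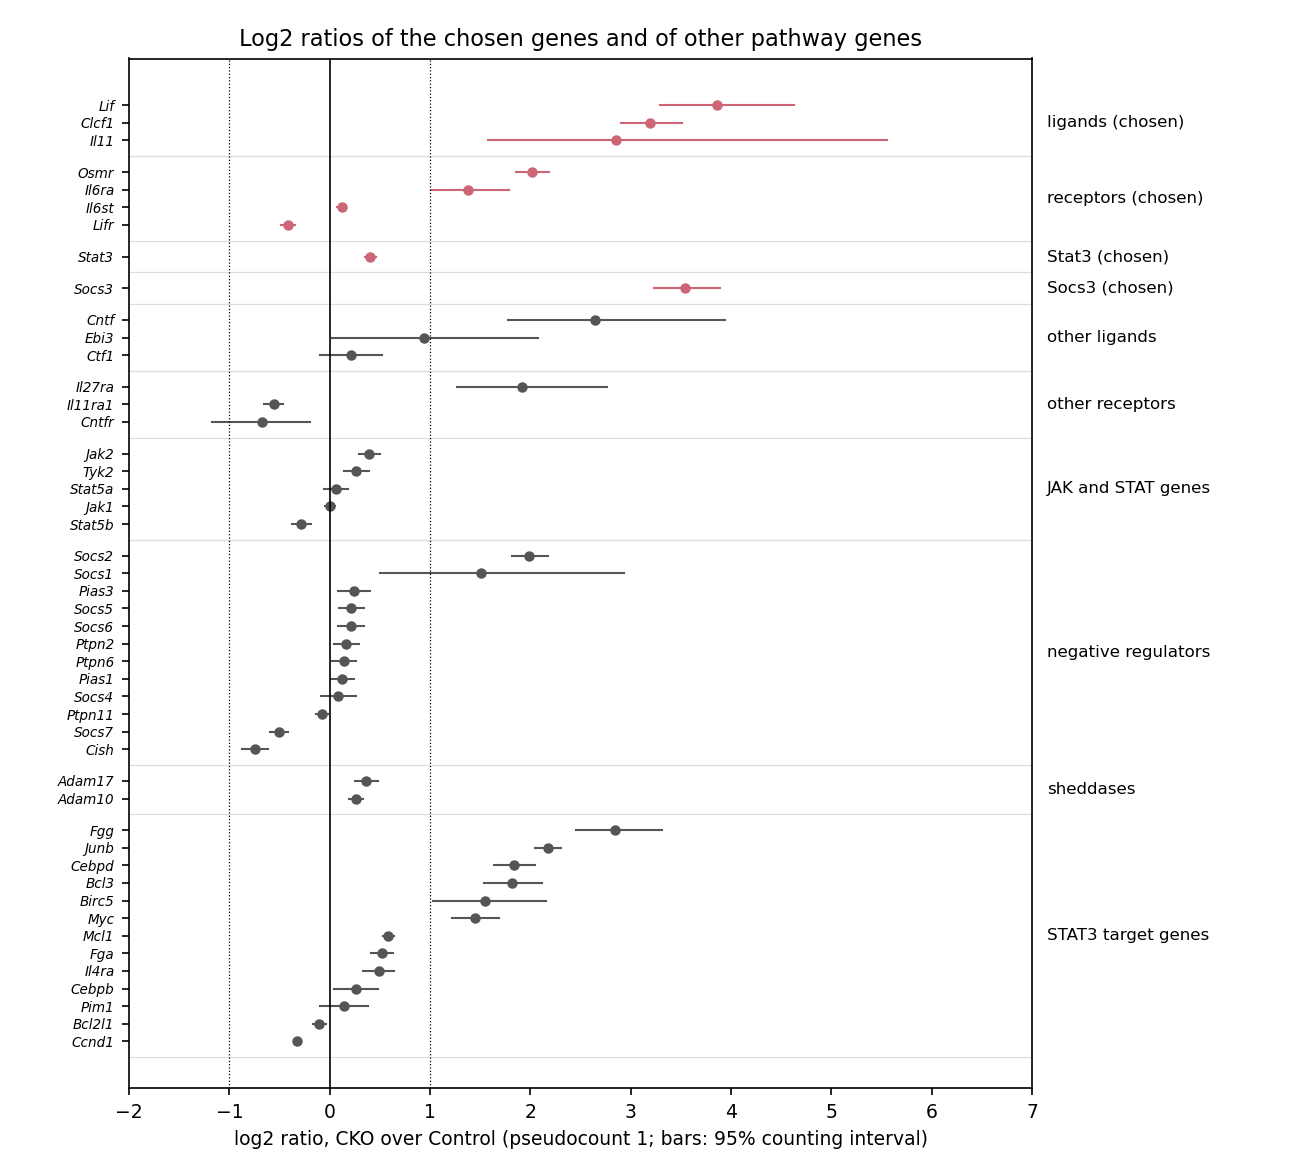
Log2 ratio of the CKO over the Control library for the 9 analysed genes (red) and 38 further pathway genes (grey), grouped by role, with 95% counting intervals as bars and dotted lines at 2-fold. The ligands Lif, Clcf1 and Il11 lie with Osmr, Socs3 and Fgg to the right, and most kinases and negative regulators lie within 2-fold of 0, where signs near 0 turn with equal totals or the deposited values (Lifr, Stat5b and Ccnd1 among them).

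Markers of other cell types moved in the same libraries, and since leukocytes and fibroblasts also express several of these ligands and receptors, their levels are given beside them. The marker lists were also chosen with earlier results known. Of 9 macrophage markers, 8 were at least 2-fold higher in the CKO library, against 13.4% of all genes compared. Their summed level was 3928 reads in Control and 26648 in CKO, and their median log2 ratio was 2.67. Lyz2 was the most abundant in CKO and the highest at 3.66, and Csf1r was the most abundant in Control and the lowest at 0.51. Of 6 fibroblast and pericyte markers, 5 were at least 2-fold higher, with sums of 5224 and 25323 reads and a median of 2.02. Col3a1 was the most abundant in CKO, Col1a1 was the highest at 2.65, and Pdgfrb was the most abundant in Control and the lowest at 0.48. All 5 T cell markers analysed of 6 were at least 2-fold higher, from 72 to 427 reads in sum, with Lck the most abundant, Cd3g the highest at 2.22 and Cd4 the lowest at 1.70. They lay in the lowest band of mean reads, where 27.7% of genes were at least 2-fold higher. With the deposited values scaled by the median gene ratio only 2 of the 5 stayed past 2-fold, with Cd4 at 0.83, Cd8a at 0.69 and Cd3e at 0.47, and Cd8a and Cd3e passed the read minimum only through the CKO library. Of 7 neutrophil markers 4 were analysed, with sums of 58 and 267 reads, from Csf3r, the most abundant, at 2.37 to Ltf at -1.58 (0.19 on the deposited values). None of these lists had a marker at 3 or fewer reads in a library. Socs3 at 3.54 and Clcf1 at 3.19 lay below Lyz2 and Lif at 3.86 above it, but with the deposited values scaled by the median gene ratio Lif at 2.67 lay below Lyz2 at 3.59. The counting intervals of Socs3 (3.24 to 3.89) and Lif (3.29 to 4.63) overlapped that of Lyz2 (3.53 to 3.79), so their order was not resolved. The part of these cells in the levels of the ligands, Osmr and Socs3 was not tested.

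Proximal tubule markers were lower in sum, with 405203 reads in Control and 340323 in CKO, a log2 ratio of -0.84 after scaling. Slc34a1 was the most abundant at -1.17, Slc22a6 the lowest at -1.62 and Slc5a12 the highest at 0.41, and the median of the 7 was -0.62, below 0 under all 6 other scalings and floors. Lifr at -0.42 was thus lower in the same library as these markers, and whether it is a tubule transcript here was not tested. Thick ascending limb markers had a sum at 0.32, from Slc12a1 at -0.14 (0.28 with equal totals) to Cldn16 at 0.83, with Umod the most abundant. Distal tubule and collecting duct markers had a sum at 0.17, from Calb1 at -0.58 to Aqp2 at 0.79, with Slc12a3 the most abundant. The sum of 3 podocyte markers was at 0.05 and that of the endothelial markers at -0.17, and the medians of these lists, -0.11 and -0.07, turned sign with equal totals, to 0.30 and 0.35. In the podocyte list Podxl was the most abundant and highest at 0.08 and Nphs1 the lowest at -0.20 (0.22 with equal totals), and in the endothelial list Kdr was the most abundant in Control and Pecam1, at -0.07, in CKO, with Emcn the highest at 0.14 and Kdr the lowest at -0.67. Il6st at 0.12 and Stat3 at 0.41 lay within the range of these nephron and vessel lists, and Lif, Clcf1, Il11, Osmr, Il6ra and Socs3 lay above the highest marker in them. This did not hold for Il11 on the deposited values, at 1.29 against 1.37 for Aqp2, or on those values scaled by the median gene ratio, at 0.73 against 0.80.

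**Figure D5:**
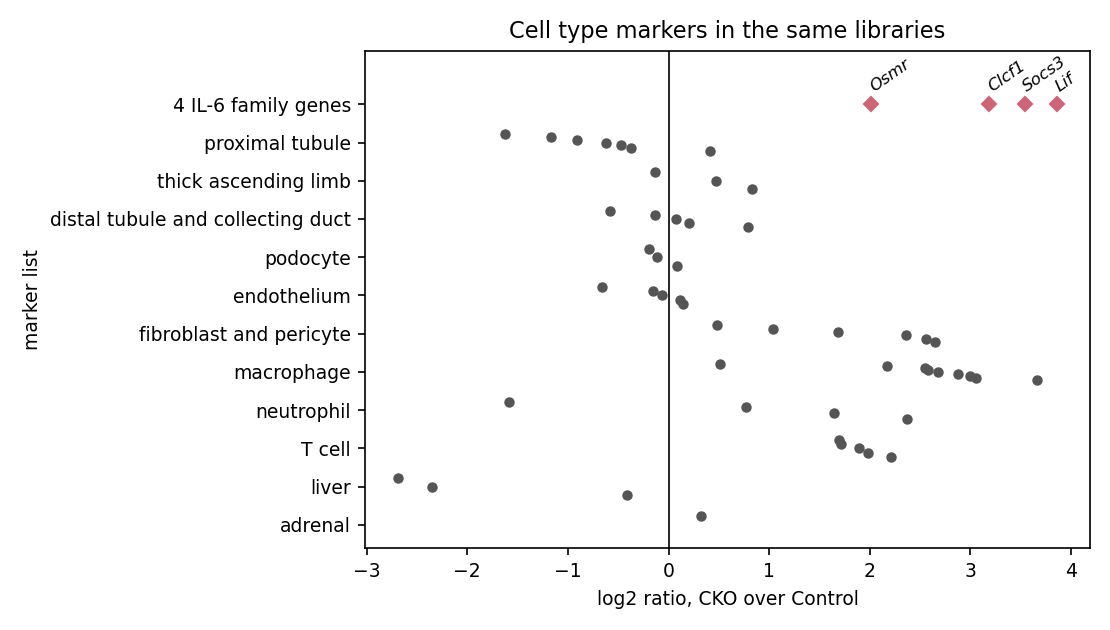
Log2 ratio of the CKO over the Control library for each marker gene that reached 10 scaled reads in either library, by cell type list, with Osmr, Clcf1, Socs3 and Lif (red) in the top row. Macrophage, fibroblast and T cell markers lie to the right with Osmr, and 6 of 7 proximal tubule markers lie to the left under this scaling (Cubn and Aqp1 turn above 0 on the deposited values).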

How the data were processed

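Alignment by the authors used STAR 2.7.3a, on mm10 according to the submitters' processing notes, and HTSeq gave counts that were normalized in DESeq2. Cufflinks 2.2.1 was also named, and its FPKM were not used. The strand setting of the counting is not given in the sources used here. The deposited values were read as a score with no standard unit, since they are whole numbers that start at 35 (control) and 51 (CKO). Subtracting the column minimum minus 1 treats them as reads plus a constant, which is an inference.

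CKO reads were scaled by the median gene ratio, and log2((CKO + 1)/(control + 1)) was taken. A gene was compared if either library held 10 or more scaled reads, and called means past 2-fold. No test between groups was possible. Ratio intervals were derived from the CKO fraction of a gene's summed reads. The members and lists (other ligands, receptors, JAK and STAT genes, negative regulators, proteases, STAT3 targets, and markers of kidney, immune, liver and adrenal cells) were chosen with earlier results of these data known. Some genes of these lists are not reported here and enter no list count. Named were all 10 genes, Zc3h12b, pathway genes past 2-fold or highest or lowest in a list, and in marker lists the most abundant, highest and lowest and any at 3 or fewer reads. The STAT3 targets within 2-fold were named to complete that list. Umod, Cubn, Aqp1, Apoa1, Star, Stat5a and Il11ra1 were named for checks, Cd8a and Cd3e for calls lost under an alternative and Jak3, Stat2, Stat4 and Stat6 to extend the JAK and STAT list, partly after their values were seen, and the read bands were chosen after the data were seen. Positions and lengths came from GENCODE M21. Alternatives were pseudocounts, scalings, floors, read minimums and thresholds. The steps were tested on simulated data. Python 3.11.15, numpy 2.4.6, pandas 2.3.3, scipy 1.17.1 and matplotlib 3.10.9 were used.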

Additional observations from a re-analysis of the deposited data

How the results depend on the processing

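No paired analysis was possible because only 1 library stood for each group. The number of the 9 genes at least 2-fold higher was 6 under all alternatives except the values as deposited scaled by the median gene ratio, at least 50 reads and a threshold of 4-fold, with 5 each. Their median log2 ratio was 1.55 when the pseudocount was 10, 2.44 under equal totals and 1.07 on deposited values scaled by the median gene ratio. Lifr reversed to 0.0013 under equal totals and to 0.17 on the deposited values. Of 72 values of single genes under the alternatives, 54 lay within the counting interval, 16 moved in size and 2 reversed. Genes at least 2-fold higher and lower numbered 3870 and 437 with equal totals, 3574 and 131 as deposited, 1196 and 463 as deposited and scaled, 3801 and 2423 past 1.5-fold, and 749 and 166 past 4-fold, and 617 were lower with at least 50 reads. Of the pathway genes, 2 were lower past 1.5-fold and 3 higher past 4-fold. As deposited, without a floor subtracted, the share of Socs3 was 2.49% in the control library, and that of Il6ra 1.76% in Control and 3.34% in CKO. Thresholds and read minimums change counts by their construction, and the cause of the other shifts was not tested. Low read numbers in the control library limit Il11, Cntf and Socs1.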
